A study of Mus musculus with 14 samples.

Results

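The interferon-stimulated genes described here are 40 genes that cells switch on in response to interferon, listed by symbol and each read by 1 probe set, the one with the highest mean log2 intensity over the 14 arrays. The choice used a gene's mean over all arrays and no difference between groups. Of the 40, 39 had a probe set that names only that gene and were tested, out of 18194 genes on the array. Isg15, a small ubiquitin-like modifier, was read only by a probe set that also names Gm9706, and its values are described without a test. Of the 39 members, 26 exceeded the background floor on all 14 arrays. The floor is the highest intensity of the bacterial control probe sets on that array, between 20.8 and 27.8. Mx2 lay below it on every array and Mx1 on 13 of 14, so little can be read from either of these antiviral GTPases.

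RNA came from bone marrow progenitors of B6/129 mice, and each of the 7 groups had 2 Affymetrix mouse arrays. The sorted groups were LSK, CMP and GMP from Tet2+/+ Mx+ (WT) and Tet2-deleted Mx+ littermates (KO). LSK cells carry c-Kit and Sca1 and lack lineage markers, and include the blood stem cells. CMP and GMP are myeloid progenitors without Sca1, separated by low and high Fc gamma receptor. The last group was KO cells sorted as CD150+ LSK and grown through 5 serial platings, with no replated WT group analysed here. Deletion was by pIC injection, and LSK and CMP were sorted 4 weeks later. The time is not given for GMP, nor the time from injection to plating for the replated cells. WT mice shared the Mx+ allele, and the labels describe pIC only as the agent of deletion. No group analysed here is labelled as being without pIC, so the data hold no measure of what pIC itself did. The labels do not state whether duplicate arrays represent different mice, so p-values reflect only how far these duplicates lay apart.

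Type I interferons are secreted by cells that sense viral nucleic acid, and pIC (polyinosinic-polycytidylic acid) is a double-stranded RNA mimic that sets off this secretion. Interferon binding activates the kinases Jak1 and Tyk2, which act on Stat2. Stat2 joins Irf9, and the complex binds a DNA element with repeated GAAA units, the interferon-stimulated response element, in the promoters of the induced genes. The products block viral replication, sense foreign RNA, tag proteins, feed peptides to MHC class I molecules, or damp the response. The Mx promoter is itself interferon-responsive, which is why Mx-driven recombinase is induced with pIC. Haematopoietic stem cells are known to keep part of this programme active without infection.

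Promoters of 4 members are shown because they hold, or lack, that repeat in genes the results turn on. They run from 250 bases before to 50 after the start of transcription, in the direction of the gene, from RefSeq on GRCm38.p6. Capitals mark matches to GAAANNGAAA on either strand. Ifit1 (chr19:34640639-34640938, plus strand) has 2 matches, at -104 and -85 from the start. Rsad2 (chr12:26456403-26456702, minus strand) has 1, at -120, and Ifih1 (chr2:62646206-62646505, minus strand) has 1, at 32. Tap1 (chr17:34187306-34187605, plus strand) has none.
Ifit1: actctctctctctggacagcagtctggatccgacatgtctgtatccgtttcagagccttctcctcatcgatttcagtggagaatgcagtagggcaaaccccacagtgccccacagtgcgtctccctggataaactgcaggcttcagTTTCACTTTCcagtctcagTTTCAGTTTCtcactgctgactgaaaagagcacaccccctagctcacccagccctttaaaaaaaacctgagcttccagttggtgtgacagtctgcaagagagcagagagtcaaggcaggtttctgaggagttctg
Rsad2: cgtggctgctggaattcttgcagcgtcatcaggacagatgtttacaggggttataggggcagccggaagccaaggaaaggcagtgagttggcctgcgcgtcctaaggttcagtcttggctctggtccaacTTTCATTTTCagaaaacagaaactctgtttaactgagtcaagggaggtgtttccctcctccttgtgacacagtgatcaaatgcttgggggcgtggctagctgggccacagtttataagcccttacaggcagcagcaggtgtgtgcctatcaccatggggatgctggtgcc
Ifih1: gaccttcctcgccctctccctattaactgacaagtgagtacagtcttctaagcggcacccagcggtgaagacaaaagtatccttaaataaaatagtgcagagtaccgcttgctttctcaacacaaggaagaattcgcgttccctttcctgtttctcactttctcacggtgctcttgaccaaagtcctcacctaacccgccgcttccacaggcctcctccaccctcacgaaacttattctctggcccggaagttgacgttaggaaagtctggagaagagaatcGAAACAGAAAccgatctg
Tap1: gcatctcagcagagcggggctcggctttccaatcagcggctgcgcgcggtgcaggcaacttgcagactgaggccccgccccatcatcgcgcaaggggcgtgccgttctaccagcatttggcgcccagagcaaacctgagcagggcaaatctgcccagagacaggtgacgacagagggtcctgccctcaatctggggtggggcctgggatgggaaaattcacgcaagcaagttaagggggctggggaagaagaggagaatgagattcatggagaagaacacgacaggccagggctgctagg
A window was at hand for 30 of the 40 members, and the motif lay in 15 of these 30 genes (50%), against 3.99% of 27025 genes with a window. The spaced repeat TTCNNNGAA, a form bound by Stat family proteins, lay in 11 of the 30 (36.7%) against 9.55% of genes. Windows of Psmb9 and Tap1, which are transcribed away from each other, share 275 bases. Ifi27l2a, Iigp1, Ly6e, Mx1, Mx2, Oas2, Parp14, Parp9, Usp18 and Zbp1 had no window.

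Markers of the sorted populations followed their labels in part. Mecom, a stem cell regulator, read 2844 to 4255 in the 4 LSK arrays and 63.8 to 524 in the 4 GMP arrays. Elane, neutrophil elastase, read 1158 to 1640 in LSK and 7234 to 7634 in GMP. In CMP, Mecom read 835 to 2811 and Elane 1996 to 2821. Cd34, listed as a CMP and GMP marker, ran the other way, at 4866 to 5367 in LSK and 3610 to 4558 in GMP. Kit, listed for LSK as well as for CMP and GMP, read 1847 to 2600 in LSK and 1279 to 1563 in GMP. Mpo, listed for CMP and GMP, already read 6472 to 7735 in LSK, against 12140 to 12630 in GMP. The replated cells stood apart on some markers. Elane and Mpo were below the floor. Fcer1a, a chain of the IgE receptor of mast cells and basophils, read 13630 and 14800 against at most 823 in sorted cells. Other listed markers did not follow. Fcgr3 (5454 and 5258) and Kit (4913 and 5568) were above all sorted arrays, which read at most 5002 and 2600. Mecom, at 2805 and 3155, was far above GMP. Mcpt8, a mast cell and basophil marker, read 496 and 486, within its sorted range of 113 to 1022. The groups also differed in sex-linked genes. Xist, expressed from the inactive X of female cells, read 4980 to 6634 in the 6 sorted KO arrays and at most 29.7 in the WT and replated arrays. Y-linked Eif2s3y read at most 12.5 in sorted KO arrays and at least 772 in all others. Genotype in the sorted cells, and replating within KO, therefore cannot be told apart from this difference.

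Over the members as a set, LSK cells were the brightest and replated cells the dimmest. The median of the members' group intensities was 439 in WT LSK and 410 in KO LSK. It was 255 and 273 in WT and KO CMP, 199 and 174 in WT and KO GMP, and 132 in replated cells. By group means, 26 of the 39 members were highest in an LSK group, 12 in WT and 14 in KO, and 25 were lowest in replated cells. These counts were not made over all genes, so they describe the members' levels and do not set them apart from other genes. On a bulk array, fewer cells of a type and less RNA per cell cannot be told apart.

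**Figure D1:**
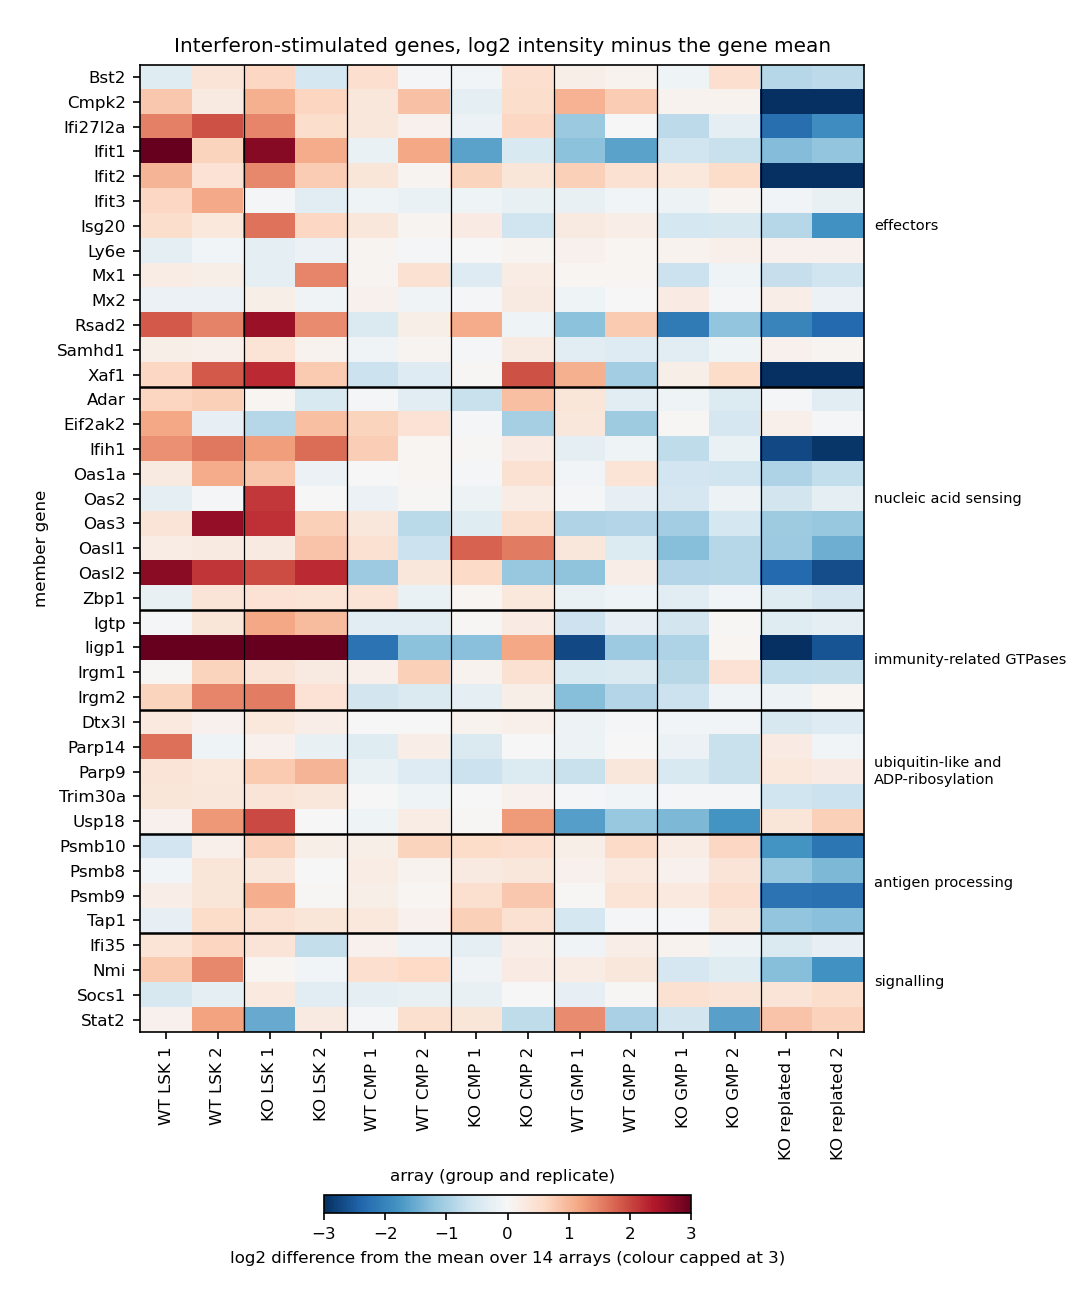
Colour gives each member's log2 intensity minus its mean over 14 arrays, with 39 members in rows grouped by role and arrays in columns. Iigp1, Oasl2, Ifih1 and Rsad2 are red in all 4 LSK columns, and Ifit2, Xaf1 and Cmpk2 are deep blue in both replated columns.

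Arrays of 1 group disagreed over these genes more often than over genes at large in some groups. In KO LSK, 14 of 38 members above the floor on at least 1 of the 2 arrays (36.8%) differed over 2-fold between the arrays, against 17.2% of all genes. Replicate 1 was the higher for 30 of the 38. The probe set of Isg15 read 480 and 55.4 in the KO LSK arrays and 46.1 and 530 in the KO CMP arrays. It read 35.4 to 136 on all others, so 1 array in each of these KO groups was high. Oas2, an enzyme that makes the 2-5A messenger on double-stranded RNA, read 100 and 23.4 in KO LSK and 15.8 to 26.9 elsewhere. In WT GMP 8 of 34 members (23.5%) differed over 2-fold, against 8.15% of genes, and in KO CMP 7 of 35 (20.0%) against 12.4%. Replated arrays differed that much in 0 of 28 members, against 1.39% of genes.

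**Figure D2:**
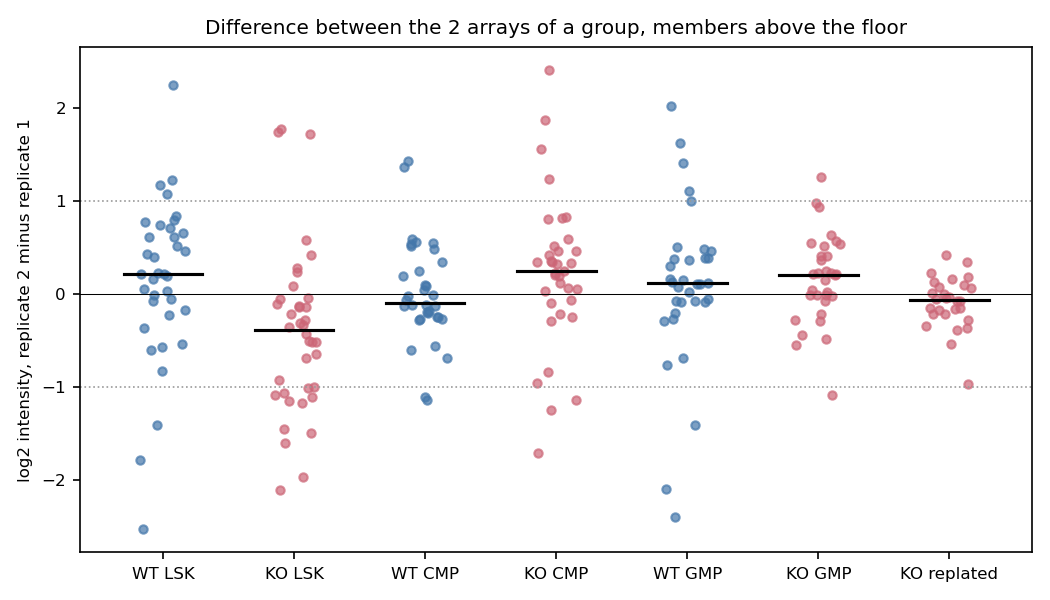
Each point is a member above the floor, plotted as log2 intensity of replicate 2 minus replicate 1 by group, with bars at the medians and dotted lines at a 2-fold difference. The KO LSK points lie mostly below 0, with a median of -0.38, and the replated points lie closest together.

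Whether Tet2 loss moved these genes was asked within each sorted population and as the average over the 3. In the average, 0 of 39 members passed an adjusted p of 0.05 in limma (Benjamini-Hochberg over all genes), where 0.308% of genes passed, and 5 had an unadjusted p below 0.05, as 9.11% of all genes did. Differences were of both signs, 22 positive and 17 negative, and the largest was 1.08 log2 units in size. The median was 0.03 on the log2 scale, as it was over all genes (0.03). For 27 of the 39 the 95% interval of the average lay within 1 log2 unit of 0, so a 2-fold average change lay outside it. No member had all 6 sorted KO arrays above or below all 6 WT arrays, a pattern shown by 0.269% (above) and 0.225% (below) of genes.

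Nmi, a partner protein of Stat factors, came nearest to the threshold in the average. It read 962 and 1523 in WT LSK and 580 and 532 in KO LSK. In CMP it read 794 and 843 in WT and 519 and 661 in KO, and in GMP 656 and 707 in WT and 394 and 437 in KO. KO arrays were below WT arrays in every population, with no overlap within any of them. The averaged difference was -0.77 ± 0.14 (SE; limma adjusted p = 0.0738), and without WT LSK replicate 1 it was -0.88 with an adjusted p of 0.0247.

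Igtp, an immunity-related GTPase that acts on vacuoles holding pathogens, leaned the other way. It read 442 and 596 in WT LSK against 1038 and 897 in KO LSK, 368 and 364 in WT CMP against 478 and 554 in KO CMP, and 299 and 389 in WT GMP against 319 and 476 in KO GMP. The genotypes overlapped only in GMP, and the average was 0.53 ± 0.13 (adjusted p = 0.227). All 4 immunity-related GTPases and all 4 genes of antigen processing had positive averages, with medians of 0.44 and 0.29, and none of the 8 passed.

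Within populations, 0 of 39 members passed in LSK (0.264% of genes did), 0 in CMP (0.121%) and 0 in GMP (0.0934%). At an unadjusted p below 0.05 there were 4, 1 and 4, against 9.91%, 6.13% and 4.43% of all genes. Ifit3, which binds viral RNA together with Ifit1, read 65.0 and 93.0 in WT LSK and 33.9 to 44.7 on every other array. Its difference in LSK was -1.06 ± 0.19 (limma adjusted p = 0.0665), and it passed without WT LSK replicate 1 (adjusted p = 0.0213) or with values raised to the floor (0.0463). Nmi in LSK was at -1.12 (adjusted p = 0.115) and passed without WT LSK replicate 1 (0.0434). When KO LSK replicate 2 was left out, Oas2 passed in LSK (2.27, adjusted p = 0.00462) and in the average (0.73, adjusted p = 0.0453), which rests on the single bright array described above.

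Oasl1, a relative of the 2-5A synthetases, had the widest gap in CMP: 47.0 and 21.8 in WT against 116 and 100 in KO. In GMP it went the other way, 43.6 and 25.7 in WT against 14.2 and 19.0 in KO, both KO arrays lying below the floor. The difference in CMP was 3.37-fold as fitted and 3.03-fold with WT CMP replicate 2, which lay below the floor, raised to it (limma adjusted p = 0.301). In GMP KO was at least 1.31-fold lower (adjusted p = 0.9999). Over all members, no difference of the KO effect between populations passed: 0 of 39 for CMP against LSK (0.022% of genes), 0 for GMP against LSK (0.0055%) and 0 for GMP against CMP (0%). The unadjusted counts were 2, 5 and 1, against 6.69%, 5.96% and 3.73% of genes, and Oas2 passed in the first 2 of these without KO LSK replicate 2 (-2.16, adjusted p = 0.0374, and -2.45, adjusted p = 0.0211).

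**Figure D3:**
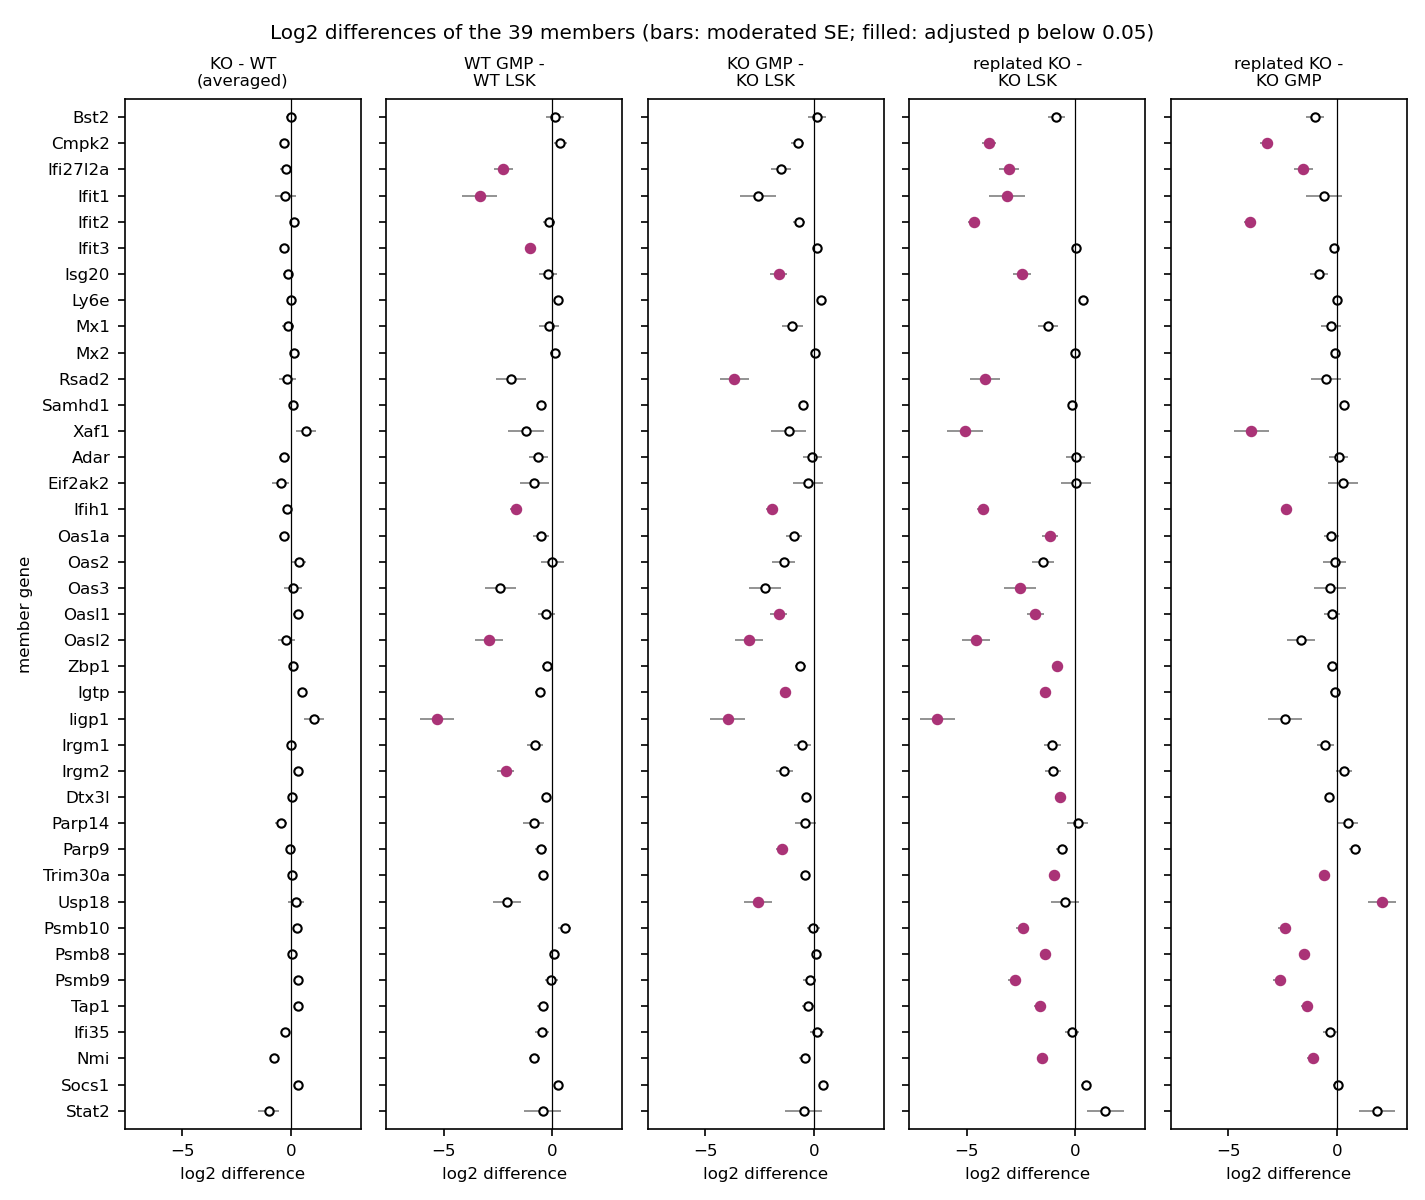
Points give each member's log2 difference in 5 comparisons, bars its standard error in limma, and filled points an adjusted p below 0.05. No point is filled for KO against WT; 7 and 9 are filled on the negative side from LSK to GMP in WT and KO, and 22 in replated cells against KO LSK.

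From LSK to GMP, in contrast, members called by limma were lower in GMP, in both genotypes. In WT, 7 of 39 members (17.9%) passed and all 7 were lower, against 7.09% of genes in either direction and 3.87% lower. In KO, 9 of 39 passed and all 9 were lower, against 7.18% in either direction and 3.76% lower. The group means compared in WT and those compared in KO share no arrays. Each gene's spread, however, was estimated from all groups together. The calls in WT and in KO, and their overlap, are therefore not independent. The KO steps between populations were compared after values had been seen. The calls shared Iigp1, Ifih1 and Oasl2, 3 of the 7 in WT and 3 of the 9 in KO. Of the 7 called in WT, 6 were also negative in KO, and of the 9 called in KO all were negative in WT. How often genes at large were shared or had the same sign in this way was not counted. The difference between the genotypes over this span passed for no member, as given above.

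Iigp1, a GTPase that breaks the vacuole of intracellular parasites, changed most. It read 841 and 474 in WT LSK and 818 and 578 in KO LSK. In GMP it read 9.03 and 28.0 in WT and 31.0 and 61.3 in KO. In CMP it read 12.8 and 25.4 in WT and 24.7 and 132 in KO. All LSK arrays stood far above all others, and 4 of the 8 CMP and GMP arrays lay at or below the floor. The fall to GMP was 39.7-fold in WT as fitted and 25.3-fold with the floor in place of the dim array (log2 -5.31 ± 0.80, limma adjusted p = 0.00443). In KO it was 15.8-fold (-3.98 ± 0.80, adjusted p = 0.0189).

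Ifih1 encodes MDA5, the sensor of long double-stranded RNA. It read 538 and 627 in WT LSK, 498 and 667 in KO LSK, 171 and 192 in WT GMP, and 124 and 181 in KO GMP. CMP lay between, at 214 to 347 over 4 arrays. LSK and GMP did not overlap, and the fall was 3.21-fold in WT (-1.68 ± 0.27, limma adjusted p = 0.00568) and 3.85-fold in KO (-1.94 ± 0.27, adjusted p = 0.00341). Oasl2, an interferon-induced relative of the 2-5A synthetases, read 283 and 192 in WT LSK, 168 and 205 in KO LSK, 18.6 and 49.6 in WT GMP, and 23.5 and 23.9 in KO GMP. Both KO GMP arrays were below the floor, so the fall was 7.68-fold in WT (adjusted p = 0.0262) and at least 7.26-fold in KO (adjusted p = 0.0257).

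The other members called in WT were 3 effectors and a GTPase. Ifit1, which binds viral RNA with an unmethylated cap, read 225 and 39.1 in LSK and 10.4 and 8.09 in GMP, a fall of at least 4.02-fold (limma adjusted p = 0.0417). Ifi27l2a, a small mitochondrial-membrane protein induced by interferon, fell 4.82-fold and Ifit3 2.04-fold. Irgm2, a regulatory GTPase, read 677 and 1163 in LSK and 174 and 228 in GMP, and fell 4.46-fold (adjusted p = 0.0105).

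Those called in KO included Rsad2, viperin, which makes a chain-terminating nucleotide. It read 1670 and 743 in KO LSK and 63.7 and 122 in KO GMP, a fall of 12.6-fold (-3.66 ± 0.69, limma adjusted p = 0.0140). In WT it read 1002 and 781 in LSK and 119 and 482 in GMP, also without overlap but with arrays of GMP far apart. Usp18, which removes Isg15 from proteins and blocks the interferon receptor, read 441 and 113 in KO LSK and 43.7 and 32.3 in KO GMP, a fall of 5.94-fold (adjusted p = 0.0454). Isg20, an exonuclease of single-stranded RNA, fell 3.08-fold, Parp9, a partner of the ubiquitin ligase Dtx3l, 2.75-fold, Igtp 2.48-fold and Oasl1 at least 1.97-fold.

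How far these calls rested on single arrays differed by gene. Without WT GMP replicate 1 the WT count fell to 2, Iigp1 and Ifih1, which passed without each array in turn. Irgm2 (adjusted p = 0.0669) and Ifit3 (0.0660) were lost only there, Oasl2 there (0.146) and without WT LSK replicate 1 (0.133), and Ifi27l2a there (0.0866) and without WT LSK replicate 2 (0.0610). Ifit1 was lost without any of 7 arrays: WT LSK replicate 1, both WT GMP, both KO GMP and both replated arrays (0.0670 to 0.193). The KO count fell to 1, Ifih1, without KO GMP replicate 1 and to 3, Ifih1, Igtp and Rsad2, without KO GMP replicate 2. Rsad2 was also lost without KO LSK replicate 1 (0.0645), Iigp1 without KO LSK replicate 1 (0.0718), Parp9 without KO LSK replicate 2 (0.0614), and Oasl2 without either KO LSK array (0.0656 and 0.0909). Usp18, Isg20 and Oasl1 were lost without 9, 9 and 7 of the 14 arrays. A fit of the compared groups alone called 0 members in WT and 1, Oasl2, in KO. With values raised to the floor, Ifit1 in WT (0.185) and Oasl1 in KO (0.110) were lost, and with log2(intensity + 16) Ifit1 in WT (0.0951) and Usp18 in KO (0.0712), which quantile normalization also ended (0.0567).

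Setting all LSK arrays against all GMP arrays, a count added after values were seen, gave 13 of 39 members (33.3%) with all 4 LSK arrays above all 4 GMP arrays, against 7.89% of genes. By the probe sets used for the tests, they were Dtx3l, Ifi27l2a, Ifih1, Ifit1, Iigp1, Irgm2, Isg20, Oas3, Oasl2, Rsad2, Samhd1, Trim30a and Usp18. Another probe set of Samhd1, above the floor on all arrays, overlapped, at 407 to 1146 in LSK and 820 to 1070 in GMP. So did another of Trim30a, at 202 to 353 in LSK and 126 to 225 in GMP. The reverse held for 1 member, Ly6e, against 11.3% of genes. Against the 4 CMP arrays, 7 members had all LSK arrays above (3.98% of genes) and 1, again Ly6e, had all below (5.03%). Ly6e, a membrane protein of the Ly6 family, read 6075 to 6967 in LSK and 7668 to 8185 in GMP. Genes of antigen processing were not among them. Psmb8, Psmb9 and Psmb10, the catalytic subunits of the immunoproteasome, and Tap1, the peptide transporter, had overlapping LSK and GMP arrays and none was called in either genotype.

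**Figure D4:**
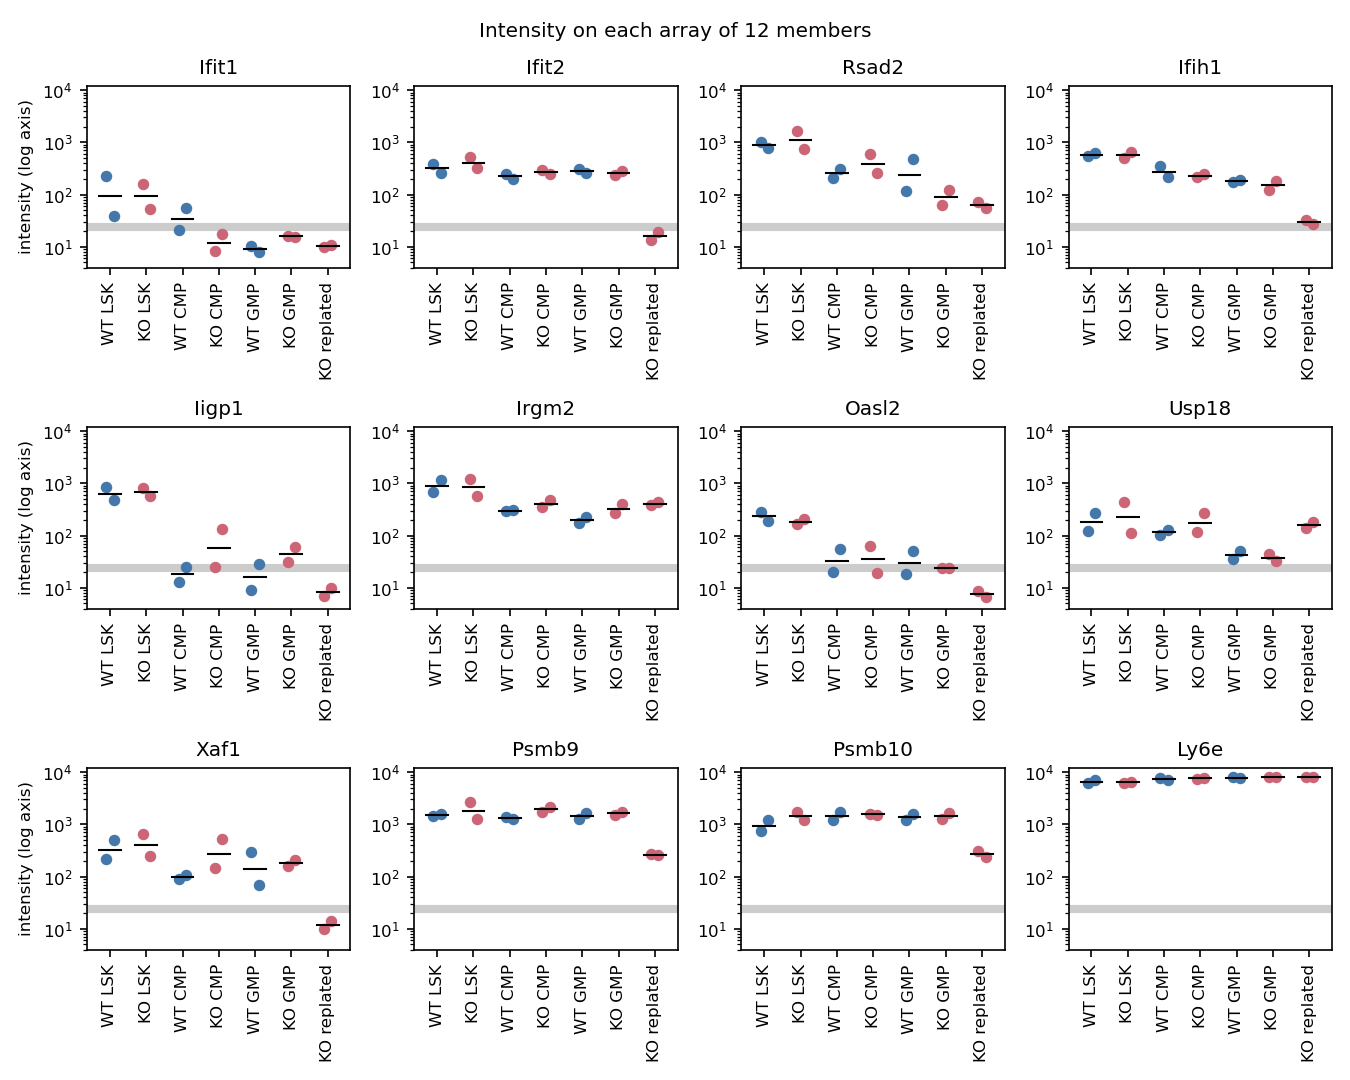
Intensity on a log axis is plotted for each of the 14 arrays for 12 members, WT in blue and KO in red, with bars at group means of the log values and the range of floors as a grey band. Iigp1 and Oasl2 drop from LSK to CMP and GMP, whereas Psmb9 and Psmb10 overlap across sorted cells and drop in replated cells.

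Most of the drop in Iigp1 lay between LSK and CMP. From WT LSK to WT CMP, 2 of 39 members passed, against 1.53% of genes. Iigp1 fell at least 25.9-fold (limma adjusted p = 0.0163) and Ifit3 fell 2.05-fold (adjusted p = 0.0300). Iigp1 was lost without WT LSK replicate 1 (0.0803) and without either WT CMP array (0.0956 and 0.0646). Ifit3 was lost without WT LSK replicate 2 (0.0684), either WT CMP array (0.116 and 0.184) or either replated array (0.0561). In KO, 1 of 39 passed from LSK to CMP (1.15% of genes), Parp9 with 612 and 722 against 228 and 268, a fall of 2.69-fold (adjusted p = 0.0479) that was lost without any of 12 of the 14 arrays (0.0553 to 0.131).

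From CMP to GMP, 0 of 39 members passed in WT (0.89% of genes), with 2 at an unadjusted p below 0.05. In KO 1 of 39 did (0.769%). This was Oasl1, at 116 and 100 in CMP and below the floor in GMP, a fall of at least 4.22-fold (limma adjusted p = 0.0155), lost without any array of KO CMP or KO GMP (0.0575 to 0.124). Steps from LSK to CMP and from LSK to GMP share the LSK arrays, and those from CMP the CMP arrays.

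Genes that mark other cells also differed along this span. The summed intensity of 5 genes of plasmacytoid dendritic cells, the main producers of type I interferon, was 4417 to 6290 in the 4 LSK arrays and 2433 to 3282 in the 4 GMP arrays. Most of it was Tcf4. Siglech, which defines those cells, read 27.8 to 50.9 in LSK and 31.7 to 38.1 in GMP. Ly6d read 162 to 258 in LSK and 28.4 to 42.4 in GMP, with no overlap. Ccr9 read 446 and 330 in WT LSK, 15.8 and 93.9 in KO LSK and 7.14 to 122 in GMP. Of the monocyte list, 3 or 4 of 5 measured genes exceeded the floor on both arrays of each LSK group and all 5 in each GMP group, with sums of 3689 to 4911 and 4377 to 6540. The sum of 4 mast cell and basophil genes was 368 to 630 in LSK and 2389 to 3324 in GMP. That of 3 T and NK cell genes was 4117 to 5502 and 8341 to 8841, nearly all of it Nkg7, and that of 3 B cell genes 1035 to 1580 and 787 to 889. The sum of 4 late neutrophil genes was 11940 to 17840 in LSK and 10870 to 13320 in GMP, which overlap. The part of these cells in the result was not tested.

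Replated KO cells had the lowest levels. Against KO LSK, 22 of 39 members passed in limma and all 22 were lower, against 25.1% of genes in either direction and 14.2% lower. Against KO CMP, 16 passed, all lower, against 24.4% and 14.1%. Against KO GMP, 11 were lower and 1 higher, against 25.3% in either direction, 15.2% lower and 10.2% higher. The median difference of the members was -1.26, -0.69 and -0.32 in these comparisons, against 0.01, -0.07 and -0.06 over all genes. The comparisons share the replated arrays. Called in each of them were 11 members: Cmpk2, Ifi27l2a, Ifih1, Ifit2, Nmi, Psmb10, Psmb8, Psmb9, Tap1, Trim30a and Xaf1.

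**Figure D5:**
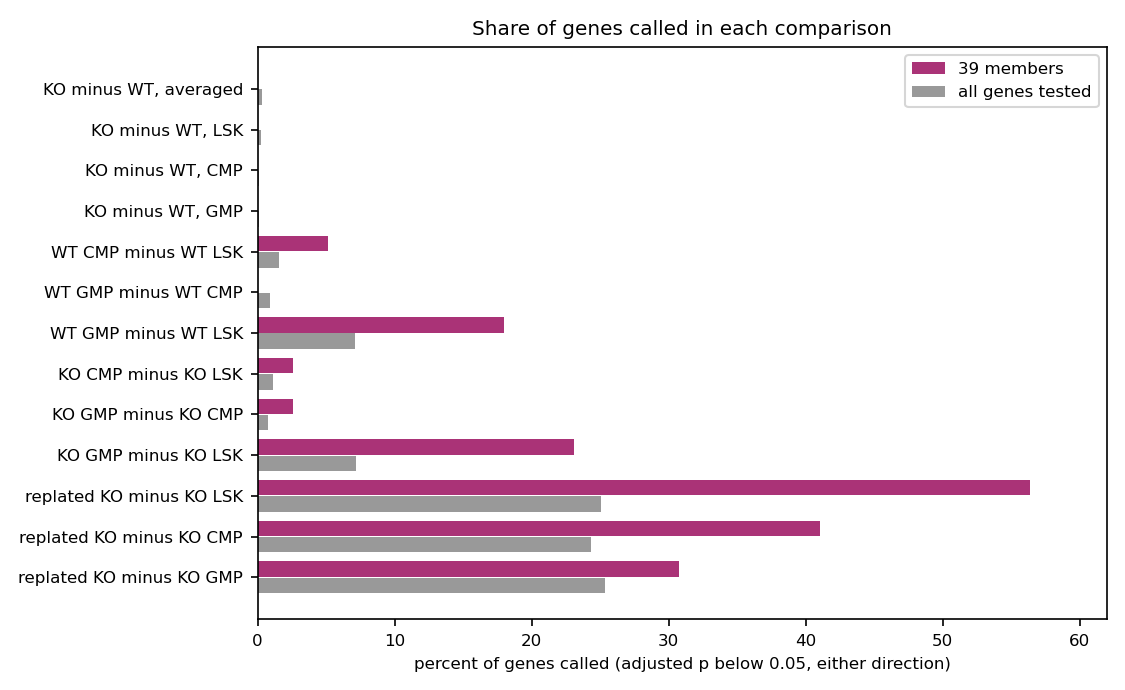
Bars give the percent of the 39 members and of all 18194 genes with an adjusted p below 0.05 in either direction, for 13 comparisons. The members' bars exceed those of all genes from LSK to GMP and in replated cells against KO LSK (56.4% against 25.1%), and are absent for KO against WT.

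Effectors accounted for 7 of the 22 falls against KO LSK, of 13 tested. Ifit2, an RNA-binding antiviral protein, read 203 to 519 on the 12 sorted arrays and 13.6 and 18.8 in replated cells, below the floor. It fell at least 18.9-fold against KO LSK (limma adjusted p = 2.63e-06), 12.6-fold against KO CMP and 11.9-fold against KO GMP. Xaf1, which opposes the apoptosis inhibitor XIAP, read 68.0 to 662 on sorted arrays and 9.79 and 14.03 in replated cells. It fell at least 18.4-fold, 12.7-fold and 8.27-fold (adjusted p = 0.00146, 0.00280 and 0.00593). A second probe set of Xaf1, above the floor on all arrays, read 46.9 and 43.2 in replated cells and differed by -3.18, -1.35 and -0.37 on the log2 scale, which is a smaller fall in each comparison.

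Cmpk2, a mitochondrial nucleotide kinase, read 62.3 to 160 on sorted arrays and 8.67 and 8.80 in replated cells, and fell at least 6.35-fold against KO LSK (limma adjusted p = 1.33e-05). A second probe set of Cmpk2, above the floor on all arrays, moved the same way by only -0.24 against KO LSK. Rsad2, its neighbour on chromosome 12, read 70.5 and 54.8 in replated cells and fell 17.9-fold against KO LSK (adjusted p = 0.00177) and 6.28-fold against KO CMP (0.0198), where it was lost without KO CMP replicate 1 (0.126) or either replated array (0.0700 and 0.112). Against KO GMP it was not called (-0.50). Another probe set of Rsad2, above the floor on all sorted arrays, read 12.9 and 16.9 in replated cells, below the floor. With no floor applied, that probe set differed by -5.41, -4.43 and -1.45 on the log2 scale against KO LSK, KO CMP and KO GMP. Isg20 and Ifi27l2a fell 5.48-fold and 8.31-fold against KO LSK. Ifi27l2a fell 2.92-fold against KO GMP, lost without either KO GMP array (0.0570 and 0.170) or either replated array (0.166 and 0.0725) and with log2(intensity + 16) (0.0693).

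Ifit1 fell at least 4.28-fold against KO LSK (limma adjusted p = 0.0201), lost without KO LSK replicate 1 (0.127) or either replated array (0.0943 and 0.0871), with log2(intensity + 16) (0.0538) and with values raised to the floor (0.0874). It was already below the floor in KO CMP and KO GMP. Bst2, tetherin, which holds virus particles at the cell surface, read 276 and 292 in replated cells and 349 to 769 on sorted arrays. Its groups did not overlap, yet it was not called in any of the 3 comparisons. Ly6e and Samhd1, which depletes nucleotides, were not called either. For Samhd1 this depends on the probe set: another, above the floor on all arrays, read 2423 and 2386 in replated cells against 407 to 1146 on sorted arrays. It was higher by 1.30, 1.89 and 1.52 on the log2 scale against KO LSK, KO CMP and KO GMP, where the probe set used for the tests gave differences between -0.15 and 0.34.

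Among the nucleic acid sensors, 6 of 9 fell against KO LSK. Ifih1 read 32.1 and 27.7 in replated cells, against 124 to 667 on sorted arrays, and fell 19.3-fold, 7.71-fold and 5.03-fold against KO LSK, KO CMP and KO GMP (limma adjusted p = 2.99e-06, 4.09e-05 and 0.00018). Oasl2 fell at least 8.54-fold against KO LSK, Oas3 at least 4.72-fold and Oasl1 at least 2.32-fold. Oas1a fell 2.22-fold and Zbp1, a sensor of Z-form nucleic acid, 1.80-fold. A second probe set of Zbp1 read 100 and 65.3 in KO LSK and, below the floor, 8.49 and 16.8 in replated cells. With no floor applied, it differed by -2.76, -1.36 and -2.01 on the log2 scale against KO LSK, KO CMP and KO GMP. Oas1a (adjusted p = 0.0459) was lost without any of 11 of the 14 arrays (0.0503 to 0.271) and under 5 other settings (0.0533 to 0.122). Oas3 was lost without KO LSK replicate 1 (0.177) or either replated array (0.111 and 0.125) and with log2(intensity + 16) (0.0613). Zbp1 was lost without either KO LSK array (0.101 and 0.0791) or either replated array (0.0840 and 0.151) and with quantile normalization (0.0710), and Oasl1 without replated replicate 2 (0.0562). Against KO CMP, Oasl1 fell at least 4.96-fold (adjusted p = 0.000434) and Oasl2 at least 1.63-fold (0.0339). The latter was lost without KO CMP replicate 1 (0.207), either KO GMP array (0.0513) or either replated array (0.102 and 0.162), with log2(intensity + 16) (0.107), with values raised to the floor (0.209) and with only the groups compared (0.0646). Adar, which edits double-stranded RNA, and Eif2ak2, the kinase PKR that halts translation, were not called, and Adar read 100 to 121 in replated cells within its range of 78.2 to 232 on sorted arrays.

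Antigen processing was the group of which each tested gene fell in each comparison, 4 of 4. Psmb9 read 1269 to 2640 on sorted arrays and 265 and 261 in replated cells, and fell 6.97-fold, 7.33-fold and 6.17-fold against KO LSK, KO CMP and KO GMP (limma adjusted p = 0.000121, 0.000108 and 0.000178). Psmb10 read 730 to 1753 on sorted arrays and 312 and 240 in replated cells, and fell 5.38-fold, 5.71-fold and 5.29-fold. For these genes no sorted array came near the replated ones. Psmb8 fell 2.64-fold, 2.91-fold and 2.82-fold, and Tap1 3.09-fold, 3.50-fold and 2.57-fold. A second probe set of Tap1, above the floor on all arrays, was lower by 0.29, 0.22 and 0.31 on the log2 scale (differences of -0.29, -0.22 and -0.31). Psmb9, Tap1 and Psmb8 are neighbours on chromosome 17 and Psmb10 lies elsewhere.

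Immunity-related GTPases gave 2 falls of 4 against KO LSK. Iigp1 read 7.10 and 9.84 in replated cells and fell at least 31.6-fold (limma adjusted p = 0.000344), and Igtp fell 2.59-fold. Against KO CMP, Iigp1 fell at least 2.63-fold (adjusted p = 0.0322), lost without KO CMP replicate 2 (0.209) or either replated array (0.158 and 0.0974), with log2(intensity + 16) (0.0763), with values raised to the floor (0.192) and with only the groups compared (0.0846). Irgm1 and Irgm2 were not called. Irgm2 read 379 and 443 in replated cells, above both WT GMP arrays.

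Of the ubiquitin-like and ADP-ribosylation genes, Dtx3l and Trim30a, both linked to ubiquitin transfer, fell 1.62-fold and 1.97-fold against KO LSK, and 1.49-fold and 1.61-fold against KO CMP, where Dtx3l was lost without replated replicate 1 (0.0526). In a fit of only the groups compared, Dtx3l was lost against KO LSK (0.0525) and KO CMP (0.0547). Against KO GMP, Trim30a fell 1.51-fold. Other probe sets of Trim30a, above the floor on all arrays, differed less or the other way, and 1 of them was higher by 0.14 against KO GMP. With the mean over its probe sets Trim30a was called only against KO LSK (0.0847 against KO CMP and 0.421 against KO GMP). Parp14 and Parp9 were not called. By the probe sets used for the tests, Usp18 was the only member called higher in replated cells. It read 142 and 182 in replated cells and 43.7 and 32.3 in KO GMP, a rise of 4.27-fold (limma adjusted p = 0.0412). The call was lost without either array of WT CMP (0.0582), WT GMP (0.0561), KO GMP (0.0986 and 0.183) or replated cells (0.113 and 0.183), and with log2(intensity + 16) (0.0748). Replated Usp18 lay within its KO LSK and KO CMP range of 113 to 441.

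Among signalling members, Nmi fell 2.89-fold, 3.05-fold and 2.16-fold against KO LSK, KO CMP and KO GMP, at 231 and 160 in replated cells. The last was lost without KO GMP replicate 2 (0.0569) or replated replicate 2 (0.0748). Ifi35, which binds Nmi, Stat2 and Socs1, a feedback inhibitor of Jak kinases, were not called. Socs1 read 30.7 and 33.7 in replated cells and was at or below the floor on 9 of the 12 sorted arrays.

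Counted without a test over the sorted arrays together, 18 of 39 members (46.2%) had both replated arrays below all 12 sorted ones, against 16.4% of genes, and by the probe sets used for the tests 0 had both above, against 12.9%. The count was added after values were seen. Markers of other cells moved with replating. Summed intensities of 4 mast cell and basophil genes were 368 to 3324 in sorted cells and 34780 and 36800 in replated cells. Of these genes Mcpt8 did not rise, at 496 and 486 in replated cells and 113 to 1022 in sorted cells. Those of 5 monocyte genes were 3689 to 6540 and at most 231, and those of 4 late neutrophil genes 10620 to 17840 and at most 99.7. The 5 plasmacytoid dendritic cell genes summed to 2433 to 6290 in sorted cells and to 666 and 585 in replated cells. Of these, Tcf4 read 2144 to 5187 in sorted cells and 394 and 379 in replated cells. Siglech, at 30.4 and 31.4 in replated cells, stayed within its sorted range of 27.8 to 50.9. For the 3 B cell genes the sums were 591 to 1580 and at most 60.8, and for the 3 T and NK cell genes 4117 to 8841 and at most 191. Their part in the result was not tested.

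Genes that carry the interferon signal, taken from a list of 21 of which 20 were measured by a probe set of their own, gave no call for genotype: 0 of 20 passed in the average or in LSK, CMP or GMP, with 0, 2, 1 and 0 at an unadjusted p below 0.05 in limma. The ligands Ifnb1 and Ifng lay below the floor on all arrays. From LSK to GMP in WT, Ifngr1, the binding chain of the interferon gamma receptor, read 573 and 547 against 1729 and 1655, a rise of 3.02-fold (limma adjusted p = 0.00109). Tyk2 rose 2.29-fold, Jak1 fell 1.76-fold and Ddx58, the RNA sensor RIG-I, fell 7.90-fold. In KO, Ifngr1 rose 2.57-fold. Ddx58 fell 10.3-fold, Irf7, a factor that amplifies interferon production, at least 3.98-fold, and Socs3, a feedback inhibitor, 19.5-fold as fitted and 11.9-fold with the floor. Duplicates in KO LSK lay apart, at 652 and 292 for Ddx58, 166 and 62.5 for Irf7, and 172 and 724 for Socs3. Calls of the 20 genes were not checked with arrays left out or under other settings. No other gene of the list passed over these spans, where 7.09% (WT) and 7.18% (KO) of all genes did.

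In replated cells Ifngr1 read 102 and 106, a fall of 5.25-fold, 6.17-fold and 13.5-fold against KO LSK, KO CMP and KO GMP (limma adjusted p = 1.31e-05, 7.08e-06 and 5.37e-07). Ifnar1, a chain of the type I interferon receptor, fell 2.23-fold, 1.70-fold and 1.75-fold. Irf1, a factor that drives Psmb9 and Tap1 in response to interferon gamma, fell 3.04-fold, 3.58-fold and 2.26-fold. Others rose in all 3 comparisons: Jak2 by 1.66-fold to 2.45-fold and Ptpn2, a phosphatase that acts on Jak and Stat proteins, by 3.82-fold to 4.86-fold. Ifngr2 fell and Jak1 and Socs3 rose against KO CMP and KO GMP, and Irf7 and Tlr3 fell against KO LSK. In all, 5, 4 and 4 of the 20 fell and 2, 4 and 4 rose. Calls in either direction were thus 7, 8 and 8 of 20, against 25.1%, 24.4% and 25.3% of all genes.

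Promoter sequence could be set beside the values for the 29 tested members with a window. Of 14 with GAAANNGAAA, such as Ifit1, Rsad2 and Ifih1, 7 fell in replated cells against KO LSK, and of 15 without it, such as Tap1, 12 did. Against KO CMP the counts were 3 of 14 and 11 of 15, and against KO GMP 2 of 14 and 8 of 15. Of all genes, 14.2%, 14.1% and 15.2% were called lower against KO LSK, KO CMP and KO GMP. From LSK to GMP, 4 of 14 with the motif and 1 of 15 without it fell in WT, and 3 of 14 and 3 of 15 in KO. The shares of all genes called lower over that span were 3.87% in WT and 3.76% in KO. The figures by motif are counts of called members, with no test of the split. Neighbouring members are not independent: Igtp and Irgm2, Rsad2 and Cmpk2, Parp14, Dtx3l and Parp9, Psmb9, Tap1 and Psmb8, Ifit2 and Ifit3, Oasl2 and Oasl1, and Oas2 and Oas3 lie beside each other with no other protein-coding gene between them.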

How the data were processed

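Total RNA (5 ng, amplified and biotin-labelled per the labels' protocols) was measured on 14 arrays in 7 groups of 2, grouped by title. The deposited values are probe-set intensities that the authors made with RMA, per the submitters' processing notes. RMA corrects background, normalizes between arrays and summarises probes. Which version was run, and on which arrays jointly, is not given in the sources used here. The intensities are linear, with array medians between 31.2 and 33.0. Here log2 was taken with no further scaling, and differences were fitted with limma 3.58.1 in R 4.3.3 (lmFit, eBayes) as 1 mean per group over all 14 arrays, with 7 residual and 2.19 prior degrees of freedom. P-values were adjusted by Benjamini-Hochberg over 18194 genes, and an adjusted p below 0.05 counted as called. Tests were two-sided, and the fit was tested on simulated data. The number of arrays limits the precision.

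Of 45101 probe sets in the file, 34958 name 1 gene in the platform annotation, 932 name several and 9211 none, and 34754 matched a RefSeq table of GRCm38.p6, used for names and neighbours. Each gene was read by its brightest probe set. Of the 39 tested members 16 had others. The floor is the highest of 27 bacterial control probe sets per array. Where every array of the dimmer group lay at or below it, the fold is against the floor and given as "at least". Other folds are as fitted, and where 1 array lay below the floor the value with the floor is given if it differs by over 1.5 times. Group levels are means of log2 values turned back to intensity.

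The members, lists and tests were chosen with earlier results of these data known. Named were members past the threshold, the 8 largest rises and falls with values, and the 3 smallest p where fewer than 3 passed. Levels by role could be given for any member, and folds of the remaining called members were added by role. Alternatives were log2(intensity + 16), quantile normalization, a filter on or replacement by the floor, all probe sets of a gene, only the groups compared, eBayes with trend and robust, the replicate number as a block, and each array left out. Same-numbered arrays did not deviate together (r between -0.10 and 0.10 over 21 pairs of groups, 1 above 0.1). Batches were not tested, since scan dates were not used here.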

Additional observations from a re-analysis of the deposited data

How the results depend on the processing

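Of the counts of called members, 312 of the values under an alternative stayed within 1.5 times of the main value and 40 did not, and no difference of a named or called member changed sign under any alternative. From WT LSK to WT CMP (2 called), log2(intensity + 16) gave 4, quantile normalization 1 and a fit of only the groups compared 0. From KO LSK to KO CMP (1 called) the count was 3 with log2(intensity + 16), 2 with the floor filter, 3 with values raised to the floor and 3 with the mean of all probe sets, and 0 with quantile normalization, with only the groups compared, and with trend and robust eBayes. With values raised to the floor, KO against WT in LSK gave 1. With only the groups compared, WT LSK to WT GMP gave 0, KO CMP to KO GMP 0 and KO LSK to KO GMP 1, where each fit has 2 residual degrees of freedom. The replicate number as a block is a pairing that the arrays did not bear out over all genes. With it, KO LSK to KO CMP gave 0 and no other count moved by over 1.5 times. That fit ended the calls of Ifit1 from WT LSK to WT GMP (adjusted p = 0.0581), Parp9 from KO LSK to KO CMP (0.0623), Usp18 from KO LSK to KO GMP (0.0650) and, in replated cells, Usp18 against KO GMP (0.0564) and Oas1a against KO LSK (0.0572).

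With each array left out in turn, KO against WT ranged from 0 to 1 (average), 0 to 2 (LSK), 0 to 0 (CMP) and 0 to 0 (GMP), and its differences between populations from 0 to 1 (CMP against LSK), 0 to 1 (GMP against LSK) and 0 to 0. The WT steps ranged from 0 to 3 (LSK to CMP), 0 to 0 (CMP to GMP) and 2 to 8 (LSK to GMP), and the KO steps from 0 to 1, 0 to 1 and 1 to 10. Replated cells ranged from 17 to 24 against KO LSK, 13 to 19 against KO CMP and 9 to 13 against KO GMP. The comparisons within KO, and their alternatives, were added after values were seen. The causes of these moves were not tested, beyond the smaller fits. With 2 arrays a group, and 11 members below the floor on both replated arrays, falls there are bounds.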
